A study of Caenorhabditis elegans with 2 samples.

Results

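Chromatin bound by TRA-1 was mapped in whole larvae of *Caenorhabditis elegans*, and the sites described here are those in the introns of autosomal protein-coding genes. A site was taken when its summit lay inside a protein-coding gene, in no exon of a protein-coding gene, and more than 100 bp from any tRNA gene in the Ensembl release 115 annotation of WBcel235. That held for 517 of the 2703 sites in the thresholded list made from both replicates (19.1%), and for 25.4% of the 2037 autosomal sites. The 517 sites formed 488 separate regions, since some overlapped a neighbour. There was 1 group of animals, strain DZ840, whose tra-1 gene on chromosome III carries the insertion allele ez72[biotag::GFP::TEV::3xflag::tra-1] made by CRISPR. The larvae were L4 larvae, synchronised by starving hatchlings after bleaching and aged 48 h, their sex was not collected, and chromatin was sonicated and precipitated with an anti-GFP antibody in 2 biological replicates. All animals carried the tag, and alignments of the control were not analysed here. Whole animals mix somatic tissues and germ line, so a site does not say in which cells it was bound.

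TRA-1, a zinc-finger protein related to vertebrate GLI factors, acts at the end of the pathway that decides somatic sex in the worm. In hermaphrodites it is known to repress genes of male development, and in males its level is kept low by the upstream pathway. An intron can hold regulatory sequence of its host gene, the promoter of a shorter transcript of that gene, or an unrelated small RNA gene with a promoter of its own. Introns of this species are mostly short, so a long intron is unusual.

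The sequences shown run from 50 bp before the summit to 50 bp after it, because they show what the strongest sites and those with a recognisable word look like. They are from the plus strand of the RefSeq WBcel235 genome, the same sequence as the ce11 build of the peak lists. The first pair is the strongest autosomal intronic sites, in fbxl-5 (chrV:7744222-7744322) and in pxn-1 (chrV:8500506-8500606). The next 3 are the strongest with the GATA-factor word TGATAAG, in C52E2.3 (chrII:1851877-1851977), pkg-2 (chrIV:8530792-8530892) and ZK250.2 (chrII:1949263-1949363). The last 3 are the strongest with at most 1 mismatch to the TRA-1 core TGGGTGGTC, in max-2 (chrII:13016550-13016650), mthf-1 (chrII:7777467-7777567) and daf-19 (chrII:10169071-10169171). Capitals mark these words, and also GAGACGC, on either strand. Counted from the first base of the core, the max-2 copy has the substitution T8G, the mthf-1 copy C9A and the daf-19 copy, on the minus strand, T8C.
fbxl-5: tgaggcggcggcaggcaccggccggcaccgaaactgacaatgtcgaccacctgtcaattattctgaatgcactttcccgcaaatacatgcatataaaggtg
pxn-1: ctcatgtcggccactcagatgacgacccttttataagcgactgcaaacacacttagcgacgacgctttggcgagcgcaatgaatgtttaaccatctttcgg
C52E2.3: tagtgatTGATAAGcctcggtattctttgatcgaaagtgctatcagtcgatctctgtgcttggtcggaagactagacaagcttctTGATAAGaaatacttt
pkg-2: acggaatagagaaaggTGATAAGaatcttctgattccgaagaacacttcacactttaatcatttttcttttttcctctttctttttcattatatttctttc
ZK250.2: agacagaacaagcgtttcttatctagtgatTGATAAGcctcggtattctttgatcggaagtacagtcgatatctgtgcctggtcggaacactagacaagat
max-2: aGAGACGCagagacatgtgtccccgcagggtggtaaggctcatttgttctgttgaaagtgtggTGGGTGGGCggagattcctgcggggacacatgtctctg
mthf-1: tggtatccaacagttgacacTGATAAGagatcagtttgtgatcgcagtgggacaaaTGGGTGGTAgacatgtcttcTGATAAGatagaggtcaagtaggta
daf-19: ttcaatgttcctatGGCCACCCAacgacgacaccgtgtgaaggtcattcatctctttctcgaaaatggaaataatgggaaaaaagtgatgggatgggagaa

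Neither of the strongest pair held the core or the GATA word within 50 bp of its summit. The C52E2.3 and ZK250.2 windows aligned to each other over 80 positions, of which 72 (90%) were the same, although the genes are separate. The signal of a site is the value the authors deposited for both replicates, and it ranks sites within a list. Sequencing depth is unknown here, because the peak lists give no counts of reads, and the intervals given below are 95% Wilson intervals (for medians, exact order-statistic intervals) that cover counting error only. Sites of a list made from both replicates are not samples, so values are compared as descriptions, without a test.

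For the whole list, replicate 1 alone gave 1682 thresholded sites and replicate 2 alone gave 1355. Of the autosomal intronic sites, 165 (31.9%, interval 28.0 to 36.1%) overlapped a site in the lists of both replicates, against 35.3% of all 2703 sites, and 196 (37.9%) overlapped a site in neither, against 34.6% of all sites. An irreproducible discovery rate (IDR) of at most 0.001, where the list admitted up to 0.01, was reached by 218 sites (42.2%, interval 38.0 to 46.5%), against 48.9% of all sites. Taken site by site, the peak signal had a median of 54.8 in replicate 1 and 48.5 in replicate 2. A replicate peak that overlaps neighbouring sites counts at each of them, here and in the comparisons of replicates that follow. The sites of din-1, for instance, share the values 94.7 in replicate 1 and 76.3 in replicate 2. Both replicates gave a value at 512 sites, replicate 1 was higher at 348 of them, and 94.9% differed by less than 2-fold, against 94.4% of all sites. The rank correlation of the replicates' signals was 0.52 over these 512 sites and 0.56 over all sites, which share the 2 libraries and the authors' threshold.

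Autosomal intronic sites were of middling strength. Their median signal was 100.8 (interval 97.9 to 104.3; quartiles 83.2 and 134.0; range 2.84 to 526.4), against 111.9 (108.0 to 118.5) at 595 autosomal sites within 1000 bp upstream of a coding start and outside genes. The median was 105.1 at 535 other intergenic autosomal sites, 87.9 (84.6 to 89.8) at 248 autosomal exonic sites and 106.0 (98.1 to 113.3) at 121 intronic sites of X. The intervals of the intronic autosomal and the exonic medians did not overlap, nor did those of the intronic and promoter medians, whereas the intronic medians of autosomes and X overlapped. Of the 100 strongest sites in the list, 17 were autosomal intronic. The lowest signals were mostly at sites close to a stronger one. Within 250 bp of a stronger autosomal intronic site lay 28 sites, called shoulders here for their position alone. Of these, 27 had a signal under 50, while only 2 of the other 489 did. Whether a shoulder is part of the stronger peak or a weak site of its own was not tested.

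**Figure D1:**
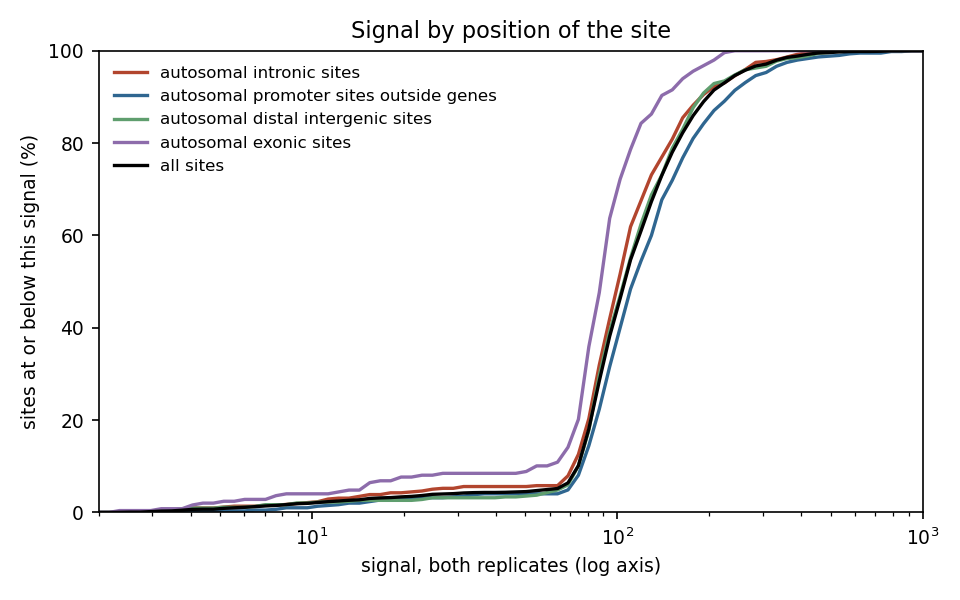
Share of sites (y axis, %) at or below each signal of both replicates (x axis, log scale), 1 line per class of position. Autosomal intronic sites (median 100.8) run between exonic sites (87.9) and promoter sites (111.9), close to all sites (105.3).

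The strongest sites fell in genes of very different kinds. In fbxl-5 the signal of 526.4 was 341.5 in replicate 1 and 173.1 in replicate 2, and the summit, position 7744272 of chromosome V, lay in the first of 5 introns. In pxn-1, which encodes a peroxidasin of the extracellular matrix, the signal was 433.7 (203.0 in replicate 1, 237.0 in replicate 2), in intron 17 of 21. The site of let-268, the enzyme that hydroxylates lysines of procollagen, had 392.2 (228.9 and 169.3 in replicates 1 and 2) in the last of 9 introns. Each of these 3 was in the lists of both replicates, as were the other 17 of the 20 strongest.

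The autophagy gene epg-9 held a site of 390.8 in intron 2 of 5. In egl-27, a GATA-type zinc-finger protein related to metastasis-associated factors, the site in intron 10 of 12 had 380.5 (235.9 and 131.3 in replicates 1 and 2). Sites of 378.5 and 366.8 lay in Y111B2A.12 and in pqn-41, a glutamine-rich protein needed for the death of the male linker cell. Below them came frm-7, a FERM-domain gene (358.1), cutl-18, a cuticlin-like gene (354.9), ints-8, a subunit of the Integrator complex (347.0), the chaperone gene hsp-90 (315.1) and the dynein heavy chain gene dhc-4 (310.7). The rest of the 20 lay in T13B5.9 (291.6), C52E2.3 (272.5), K11D2.4 (272.3), the Mediator subunit mdt-26 (270.8), the fatty acid desaturase fat-4 (270.8), the nuclear receptor nhr-19 (270.1), Y43F8B.2 (270.0) and T28F4.1 (267.7). Within these 20, 4 summits lay in a first intron and 3 (hsp-90, K11D2.4 and fat-4) lay up to 1000 bp upstream of an internal start of the host.

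The 517 sites had 368 host genes, 2.21% of the 16657 autosomal protein-coding genes with an intron. Host genes were long, with a median of 6774 bp against 2030 bp for those 16657 genes, and they held a median of 4214.5 bp of intron against 717 bp. When the 16657 genes were ranked by their intron length and split into 4 equal groups, the hosts numbered 280 in the group with most intron, 67 in the next, 18 in the next and 3 in the group with least. Per megabase of intron these groups differed less, with 19.8, 15.4, 8.93 and 4.88 sites in the same order, against 18.0 over all genes. Sites on chromosome II made up 23.6% (122 sites, interval 20.1 to 27.4%), against 17.0% of autosomal intron positions, and each of the other autosomes held 96 to 104 sites, or 18.6 to 20.1%.

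Most hosts held 1 site (285 genes), 83 held 2 or more, and 20 held 4 or more. The 400 distinct introns with a site included 77 with 2 or more and reached 5 sites in 1 intron. The most sites, 7, were in pkg-2, a cGMP-dependent protein kinase gene, whose introns 4 and 5 held signals of 254.2, 229.3 and 120.7, and of 118.8, 108.9, 88.8 and 84.2. For the strongest of these, replicate 1 gave 164.8 and replicate 2 gave 65.1, and for the weakest 41.7 and 45.3. Both replicates were higher at the strongest of the 7 than at the weakest.

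Also with 7 sites was zfp-1, the worm relative of the chromatin factor AF10. Its introns 4 and 9 held signals from 119.1 to 193.7, and 2 shoulders of 29.9 and 4.04. The 6 sites of egl-27 spread over introns 2, 5 and 10. The tagged gene tra-1 itself held 6 sites, all of modest strength, with 110.9, 103.8 and a shoulder of 10.7 in intron 4, and 81.0, 80.9 and a shoulder of 20.3 in intron 2. The strongest tra-1 site had 60.4 in replicate 1 and 43.4 in replicate 2 and was in the list of replicate 1 only, and the next had 41.0 and 72.1 and was in the list of replicate 2 only.

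Among hosts with 5 sites, daf-5, a Sno/Ski factor of the dauer TGF-beta pathway, had all 5 in its first intron of 14446 bp (258.2, 134.3, 128.5, 88.2 and a shoulder of 10.5). The TFEB relative hlh-30 had 93.7 to 169.5 over introns 1 and 2, ppfr-1, a protein phosphatase regulatory subunit, had 95.04 to 257.2 over introns 4 and 5, and the CREB-family gene crh-2 had 22.9 to 155.2. In kin-1, the catalytic subunit of protein kinase A, the signals were low (68.5 to 129.1), and 4 of the 5 summits lay 48 to 201 bp upstream of an internal start. The 4 sites of pqn-41 were strong throughout, at 366.8, 254.7, 235.8 and 177.0, all in intron 14 of 10372 bp and all in the lists of both replicates.

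**Figure D2:**
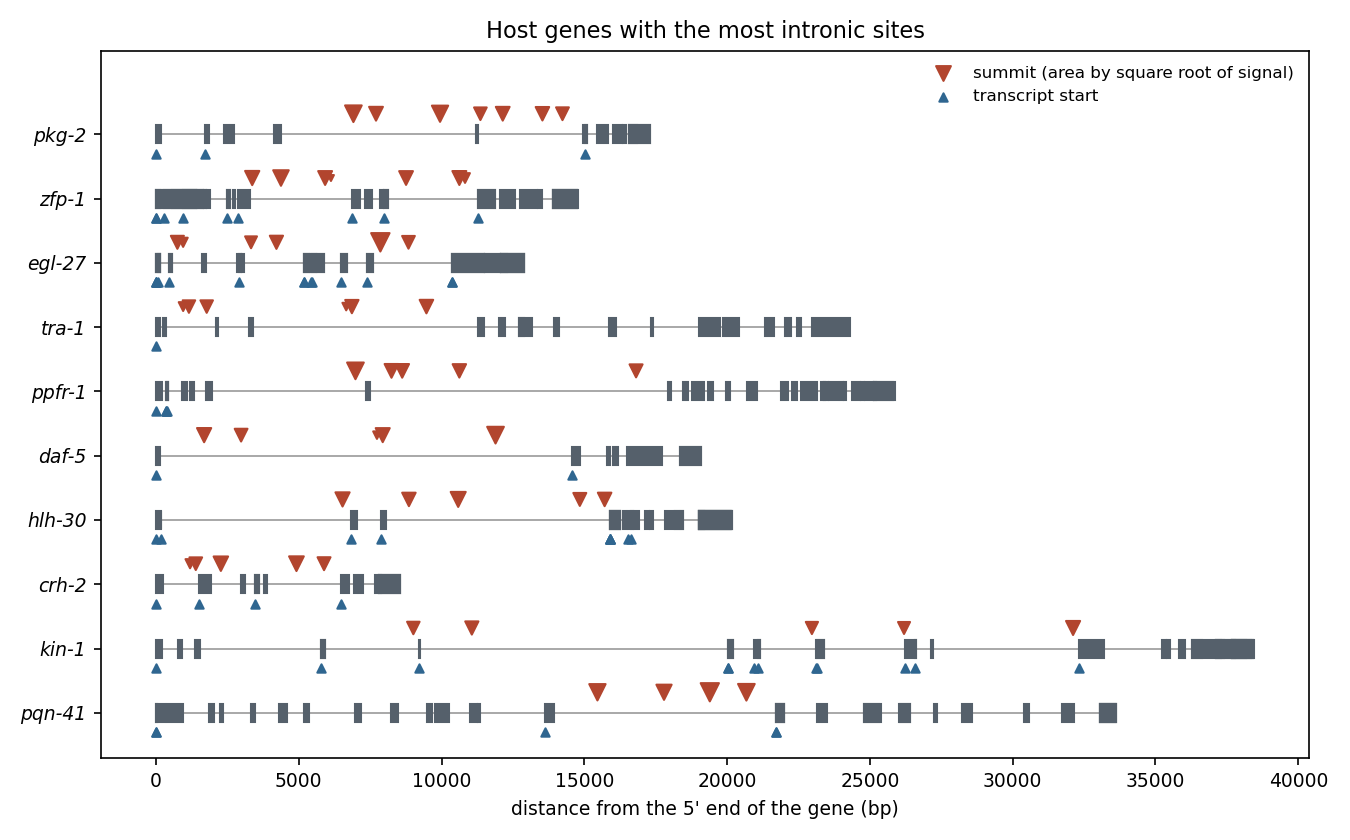
The 10 host genes with the most autosomal intronic sites, drawn from the gene's 5' end (x axis, bp), with summits as red triangles sized by the square root of their signal, exons of all coding transcripts as boxes and coding transcript starts as blue triangles. The 7 sites of pkg-2 and the 5 of daf-5 sit in 1 or 2 long introns, and in kin-1 4 of 5 summits stand just upstream of a start.

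First introns held 182 of the 516 sites with an intron number (35.3%, interval 31.3 to 39.5%), against 24.3% of all autosomal intron positions on a grid of 25 bp. The number is that of the longest host transcript with the summit in an intron, and 1 site lay in no intron of a coding transcript. Intron 2 held 15.7% of sites and 16.1% of positions, intron 3 held 9.69% and 12.7%, intron 4 held 11.4% and 10.7%, introns 5 to 9 held 21.1% and 26.0%, and introns 10 or later 6.78% and 10.1%. The first intron was thus the sole class with a share above that of positions by more than the counting interval. Counting introns that are first in at least 1 transcript, 262 sites (50.8%) qualified, against 32.8% of positions. Within the host genes alone, 28.1% of intron positions were in a first intron, a share between that of the sites and that of all positions.

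Introns with a site were long. The median length was 2403 bp (quartiles 822 and 5965 bp; range 32 to 86515 bp), against 943 bp for the intron at a median position of the grid, for which long introns count in proportion to their length. Counting each intron once, the median was 1677.5 bp for the 400 introns with a site and 70 bp for all distinct autosomal introns. Introns of 2000 to 5000 bp held 25.4% of sites against 15.8% of positions, those of 5000 to 10000 bp 19.0% against 8.63%, and those over 10000 bp 10.1% against 4.02%. In introns of up to 100 bp there were 8 sites (1.55%) against 9.09% of positions. Each length class leaves out its lower bound. Per megabase, introns of up to 100 bp held 3.17 sites, those of 100 to 500 bp 13.0, those of 500 to 1000 bp 10.7, those of 1000 to 2000 bp 16.2, those of 2000 to 5000 bp 29.9, those of 5000 to 10000 bp 41.1 and longer ones 46.8. Pooled over the host genes alone, the median position lay in an intron of 3141 bp, longer than the 2403 bp of the sites. Hosts with more intron weigh more in that pool, and sites were not compared with positions gene by gene.

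**Figure D3:**
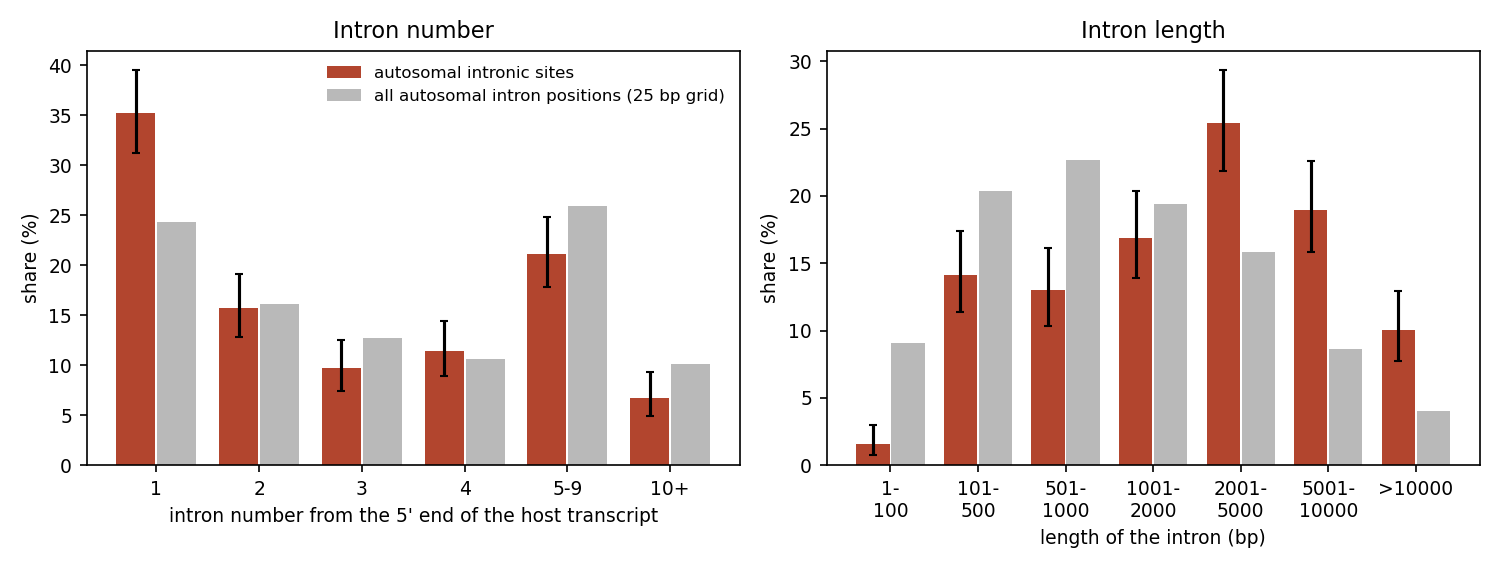
Share (y axis, %) of the autosomal intronic sites (red, bars with 95% Wilson intervals) and of all autosomal intron positions on a 25 bp grid (grey) by intron number from the 5' end (left) and intron length (right). Sites exceed positions in first introns (35.3% against 24.3%) and in introns over 2000 bp.

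The longest introns with a site were those of cox-6B (86515 bp, 2 sites of 138.8 and 92.7), kin-1 (21230 bp, 4 sites of 68.5 to 99.7) and Y48C3A.5 (19927 bp, 118.4 and 87.2). In cox-6B, a subunit of cytochrome c oxidase, the weaker summit lay 151 bp upstream of an internal start. The shortest were in ZK858.6 (32 bp, signal 93.0), F17C11.22 (40 bp, signal 181.4) and chp-1 (44 bp, signal 79.8), introns shorter than a site, so that only the summit and not the whole site is intronic there. Signal did not follow intron length, with a rank correlation of -0.013 over 516 sites. Sites in first introns had a median signal of 102.0 (93.7 to 106.2) and those in later introns 100.02 (96.8 to 106.1), intervals that overlap almost wholly.

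Length and intron number are linked, since long introns are more often first. Within introns of 1000 to 2000 bp, 35.6% of sites (interval 26.4 to 46.1%) were in a first intron against 20.5% of positions. The 8 sites in introns of up to 100 bp had 4 in a first intron (50%, interval 21.5 to 78.5%), against 18.3% of positions. In the other classes the gap was within the counting interval, with 32.8% against 30.3% at 2000 to 5000 bp, 43.9% against 36.8% at 5000 to 10000 bp, and 50% against 45.1% above 10000 bp. Up to 1000 bp it was 23.9% against 20.8% at 500 to 1000 bp and 26.0% against 20.5% at 100 to 500 bp.

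Internal transcript starts lay close to many sites. A summit counted as at an internal start when it lay from 1000 bp upstream to 200 bp downstream of the start of a coding transcript of its host that begins more than 100 bp past the most upstream one. That held for 138 of 516 sites (26.7%, interval 23.1 to 30.7%), against 10.8% of autosomal intron positions and 17.0% of the intron positions of the host genes alone. Of these, 134 lay upstream of the start, at a median of 376.5 bp, and 57 lay within 300 bp of it. That side is largely fixed by the choice of sites, because the window is longer upstream and exons, which follow a start, are left out. Host genes had an internal start in 67.7% of cases (249 of 368), against 20.01% of the 16657 genes. Hosts were also longer (median 6774 bp against 2030 bp), and the part of gene length in this difference was not tested. A start of another protein-coding gene was as close at 42 sites (8.12%, interval 6.07 to 10.8%), against 6.42% of positions.

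By length of the intron, the share at an internal start was 23.3% against 7.10% of positions at 100 to 500 bp, 29.9% against 10.1% at 500 to 1000 bp, 32.2% against 12.4% at 1000 to 2000 bp and 32.8% against 15.4% at 2000 to 5000 bp. It was 20.4% (interval 13.6 to 29.4%) against 15.2% at 5000 to 10000 bp and 15.4% (8.01 to 27.5%) against 10.3% above 10000 bp, both within the counting interval. Sites in first introns were at an internal start in 38.5% of cases (interval 31.7 to 45.7%) and those in later introns in 20.4% (16.39 to 25.003%). No share over intron positions is given for first and for later introns, so the part of the annotation in this difference was not tested. Sites at an internal start had a median signal of 103.6 (93.0 to 110.6) and the others 99.6 (96.8 to 103.3), which overlap.

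**Figure D4:**
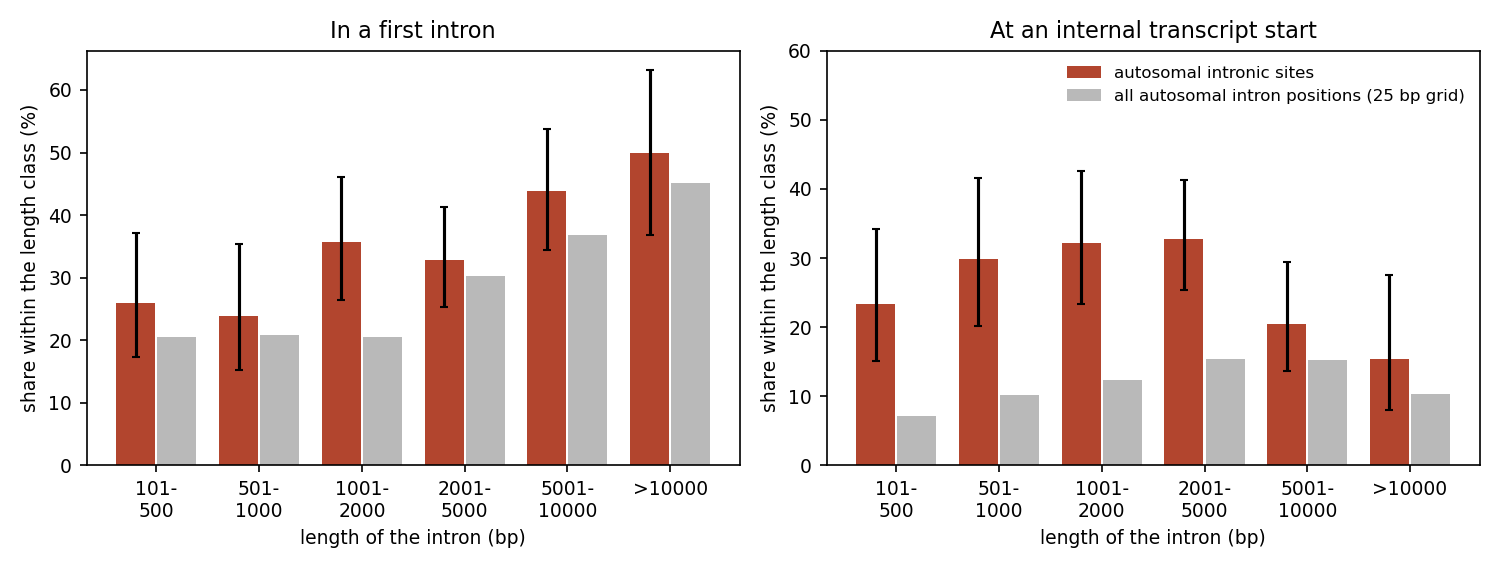
Share (y axis, %) of sites in a first intron (left) and at an internal transcript start (right) within the classes of intron length over 100 bp (x axis, bp), for the autosomal intronic sites (red, bars with 95% Wilson intervals) and all autosomal intron positions (grey). At internal starts the sites exceed the positions in the 4 plotted classes up to 5000 bp, and for first introns, among the plotted classes, the interval lies above the positions at 1000 to 2000 bp.

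The strongest site at an internal start was that of hsp-90, 381 bp upstream of the start, with a signal of 315.1 (176.0 and 139.9 in replicates 1 and 2). K11D2.4 (272.3) and fat-4 (270.8) followed, at 977 and 259 bp upstream. Others were T28B11.1 (237.0, 757 bp upstream), srh-2 (229.5, 112 bp upstream), spd-5, a centrosome scaffold gene (224.4, 712 bp upstream), and a Y43F8B.2 site of 204.3 only 26 bp upstream. In F55A11.6 (230.0) the summit lay 80 bp downstream of the start.

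Small nucleolar RNA genes, whose RNAs guide the modification of ribosomal RNA, stood beside 34 of the sites. That is 6.58% (interval 4.74 to 9.05%) within 100 bp, against 2.52% of autosomal promoter sites, 3.36% of other intergenic autosomal sites, 0.403% of exonic sites and 0.168% of autosomal intron positions. None of the 121 intronic sites of X had one (interval up to 3.08%), where the annotation lists 4 snoRNA genes in introns against 168 on autosomes. These 34 sites touched 34 of the snoRNA genes. Small nuclear RNA genes were within 100 bp of 6 sites (1.16%, interval 0.533 to 2.51%) against 0.0589% of positions. The windows of all 6 had other copies in the genome (at least 80% identity over at least 80 bases), from 2 at pin-2 to 11 at F58G1.7 and C15F1.5. Those of dhc-4, C28A5.6 and mpc-1 were alike, as were those of F58G1.7 and C15F1.5, so these sites may not be separate observations. A gene of the broad class ncRNA was within 100 bp of 71 sites (13.7%), against 16.7% of all sites and 1.96% of intron positions, and the piRNA class was rarer at sites (2 sites, 0.387%) than at positions (2.48%). Antisense RNA genes were close to 6 sites, at ppfr-1, vhp-1 (2 sites), nep-26, let-526 and nhr-34, or 1.16% against 0.159% of positions.

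The 40 sites beside a snoRNA or snRNA gene differed from the other 477 in measures that the choice of sites did not use directly. Their median signal was 151.5 (128.7 to 171.4) against 99.01 (95.04 to 102.2), their median intron was 345.5 bp against 2825 bp, and 72.5% of them were in the lists of both replicates against 28.5%. First introns held 12.5% of them against 37.2% of the others. Of the others, 27.3% lay at an internal start, against 20% of the 40. These shares rest on 40 sites and are given without intervals. Intron length and number are also properties of the introns that hold such genes, and their values over the 168 snoRNA genes in autosomal introns are not given here. Presence in both lists is tied to signal, so it is not a separate difference.

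Of the 20 strongest sites, 3 were beside a snoRNA gene and 1, in dhc-4, beside an snRNA gene. The dhc-4 window had 4 other copies in the genome. The pxn-1 site lay within 100 bp of the snoRNA gene ZK994.7, in an intron of 341 bp. The frm-7 site (179.0 and 167.1 in replicates 1 and 2) lay by C51F7.3 and C51F7.4 in an intron of 267 bp, and the cutl-18 site (164.9 and 191.7) by T03F7.8 in an intron of 322 bp. Further such hosts were catp-8, a P-type ATPase gene (245.1), twk-5, a potassium channel gene (209.5), unc-41, the worm stonin (196.2), mix-1, a condensin subunit (146.1), and unc-70, the beta-spectrin gene (127.7). The 40 sites had 39 host genes, and din-1 held a pair of them (169.4 and a shoulder of 11.9).

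**Figure D5:**
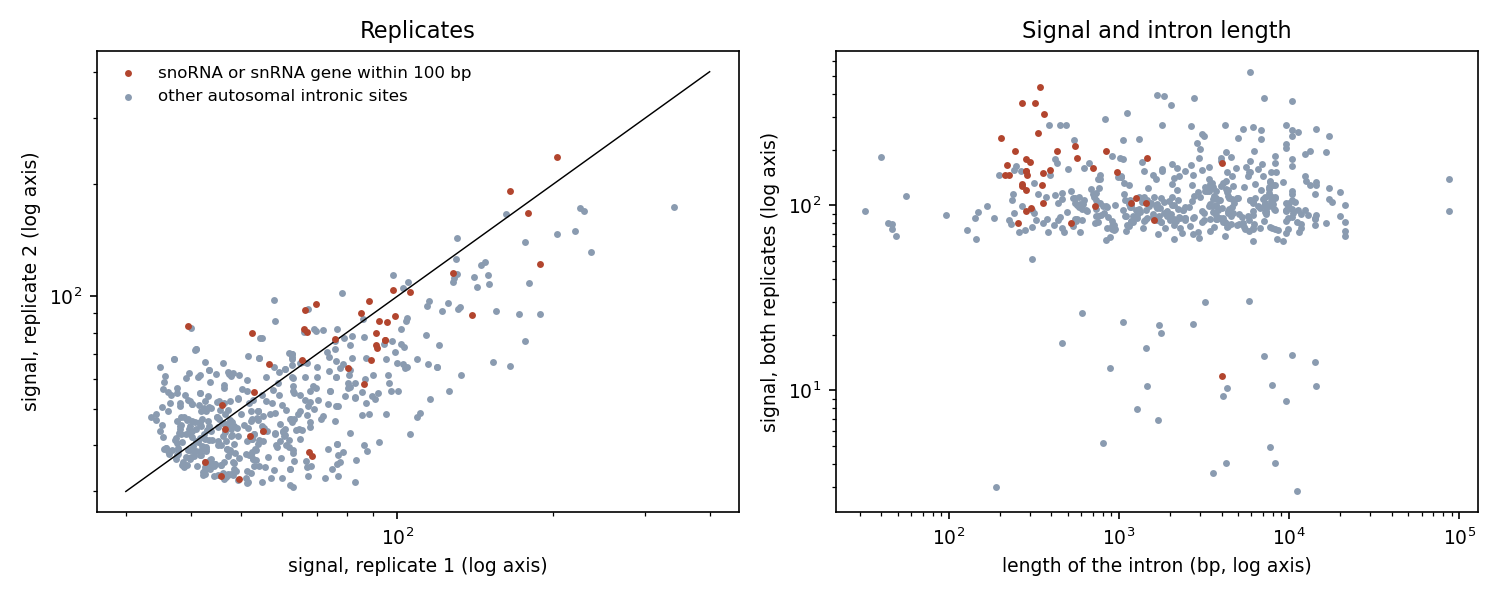
Left, signal of each autosomal intronic site in replicate 1 (x axis) and replicate 2 (y axis), both log scale, with the line of equality. Right, signal of both replicates (y axis, log scale) against the length of the intron (x axis, bp, log scale). Sites within 100 bp of a snoRNA or snRNA gene (red, median signal 151.5) cluster in short introns (median 345.5 bp), and most of the other sites (median 99.01) lie in longer ones.

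The words searched in these windows, on both strands, included the GATA-factor word TGATAAG and its part GATAA. The others were the core TGGGTGGTC and its part TGGGTGG. The last pair, GAGACGC and also CTCTCTC, came from earlier results on these data. TGATAAG was in 52 windows (10.1%, interval 7.75 to 12.9%), against 9.29% of all sites, 17.4% of intronic sites of X (11.6 to 25.1%) and 1.31% of autosomal intron windows of the same length. GATAA was in 27.3%, against 29.9% of all sites, 48.8% of intronic sites of X (interval 40.0 to 57.6%) and 19.99% of intron windows. Sites with TGATAAG had a median signal of 107.3 (100.8 to 118.4) and those without it 99.4 (96.0 to 103.0), and 42.3% (29.9 to 55.8%) and 34.5% were in first introns.

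The exact TRA-1 core was rare at intronic sites. It was in 1 window, at T28B11.1 (signal 108.5, with 62.8 and 65.4 in replicates 1 and 2), or 0.193%, against 0.296% of all sites, 0.840% of autosomal promoter sites (5 windows) and 0.0268% of intron windows. With at most 1 mismatch it was in 10 windows (1.93%, interval 1.05 to 3.52%), against 2.15% of all sites and 0.647% of intron windows. The 9 with a mismatch were in max-2, a p21-activated kinase (176.7), mthf-1, methylenetetrahydrofolate reductase (170.6), daf-19, the RFX factor of ciliated neurons (142.2), hlh-30 (110.7), Y111B2A.12 (98.6), sra-30 (96.3), pin-2 (80.4), cam-1 (76.5) and miz-1 (65.6). The windows of max-2, sra-30 and pin-2 had 6, 4 and 2 other copies in the genome (at least 80% identity over at least 80 bases), and the rest had none. The shorter TGGGTGG was in 12 windows (2.32%), against 1.63% of all sites and 0.503% of intron windows. Of the 12, 9 lay in first introns, which held 35.3% of all autosomal intronic sites, but 12 windows are too few to read a preference from. Absence of these letters says only that they are not within 50 bp of the summit.

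GAGACGC was in 8.90% of the windows (interval 6.74 to 11.7%), against 6.51% of all sites, 2.48% of intronic sites of X (0.847 to 7.04%) and 0.797% of intron windows. CTCTCTC was in 11.2% (8.78 to 14.2%), against 8.44% of all sites and 1.23% of intron windows. GAGACGC was found in 12.6% of sites in first introns and 6.89% of those in later introns, and in 13.8% of sites at an internal start and 7.14% of the others. The windows were rich in G and C, with a median of 44.6% against 32.7% for intron windows, and the part of this in the counts of words was not tested. In the 129 sites with the highest signal the median was 49.5%, and in the 129 with the lowest 42.6%.

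Most sites had no other copy in the genome by the measure used, which leaves out shorter and less alike matches. The window around the summit had another copy, with at least 80% identity over at least 80 bases, at 66 sites (12.8%, interval 10.2 to 15.9%), against 14.4% of all sites, 2.48% of intronic sites of X and 24.2% of 5560 autosomal intron positions. At 34 sites (6.58%) there were 10 or more other copies, against 12.9% of positions. Sites with a copy had a median signal of 97.2 and the others 102.2. How reads that match several places were treated is not given in the sources used here. Between themselves, 31 sites fell into 12 groups of 2 or 3 with alike windows, here over at least 60 bases. Such were those of tir-1, cua-1 and unc-82 (signals 81.3 to 103.0), which had 244 to 254 other copies each, and those of C31C9.6, Y6B3B.1 and Y50D7A.1, with 53 to 61. The let-268 windows (392.2 and 96.8) were in such a group with T02E1.2, although each had 0 other copies over 80 bases.

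Genes of known pathways were looked up in 17 lists that hold 545 genes, of which 80 are on X and 3 had no match by name. Regulators of chromatin and transcription gave the most hosts by number, 11 of 55 autosomal genes with an intron (20%), against 2.21% of all such genes. The developmental timing list had a higher share, 3 of 10 (30%). The 27 sites of the chromatin and transcription list made 88.5 per megabase of intron, against 18.0 over all genes. This list's median intron content of 3134 bp was above the 717 bp of all genes. Density was higher in the lists of GATA factors (171.3, all from egl-27), TGF-beta (92.4) and sex determination (90.8). Of the 27 sites, 6 were in egl-27 and 6 in tra-1, shoulders included. These 2 genes also count in the GATA and sex determination lists. Strong examples were egl-27 (380.5), the forkhead gene fkh-7 (194.0), daf-19 (142.2), the bZIP gene zip-2 (141.4), the TEAD factor egl-44 (125.3) and jun-1 (124.8). The other hosts of this list were atf-7, eor-1, klf-3, mef-2 and tra-1.

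Over all 16657 autosomal genes with an intron, the share of hosts was 2.21% and the median intron content 717 bp. The 6 signalling, timing and sex lists that follow held more intron, with medians of 1861.5 bp (Wnt) to 5352 bp (Notch and EGF-Ras). The part of intron content in their counts of hosts was not tested. In sex determination, 2 of 21 genes were hosts (9.52%), tra-1 with its 6 sites and the DM-domain gene dmd-10 with 1 of 82.3 in intron 5 of 6 (34.3 and 48.4 in replicates 1 and 2). In developmental timing, 3 of 10 were hosts, each with 1 site: lin-41 (115.2), blmp-1 (115.2) and lin-28 (91.6), where the summit lay 17 bp upstream of an internal start. Of 12 insulin and stress genes, the FOXO gene daf-16 held 4 sites (94.0 to 188.0) and the Nrf-type gene skn-1 held 2 (112.5 and 92.5). In the TGF-beta list 2 of 17 were hosts, daf-5 and the Smad gene daf-14 (217.2 in its first intron). Notch and EGF-Ras signalling had 2 of 19, lag-1, the DNA-binding factor of Notch signalling (151.7 and 106.4), and the ERK gene mpk-1 (128.2). Wnt signalling had 1 of 24, the Ror receptor gene cam-1 (102.5 and 76.5).

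The lists of structural and neuronal genes differed in their density of sites, but the muscle, synapse and matrix values rest on 1 site each. Their median intron content ran from 2866 bp (muscle) to 6633 bp (synapse), against 717 bp over all genes. In muscle structure, 1 of 33 was a host (3.03%, against 2.21% of all genes), unc-22, the twitchin gene (85.0). That makes 4.80 sites per megabase against 18.0 over all genes. The synapse and ion channel list had 1 of 33 (3.03%), the G-protein gene egl-30 (139.7, 331 bp upstream of an internal start), or 3.84 per megabase. That list is partial, and ion channel genes outside it were hosts, among them twk-5 (209.5), cng-3 (146.1), asic-2 (106.2), lgc-55 (83.4), twk-34 (83.2) and twk-42 (74.0), named after their values were seen. Basement membrane and matrix had 1 of 20 (5%, pxn-1), or 8.38 per megabase. Axon guidance had 3 of 32 (9.38%, the kinesin unc-104, dlk-1 and unc-73), or 13.0. Cytoskeleton and junction genes had 3 of 30 (10%), anc-1, unc-70 and vab-10, with 6 sites of 81.2 to 127.7 and, in vab-10, a shoulder of 2.84. That makes 24.4 per megabase, above the 18.0 over all genes. None of the 29 listed autosomal Hox and homeobox genes was a host, in 108.9 kb of intron, but the list is partial and irx-1, an Iroquois homeobox gene outside it, held a site of 179.6.

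Among the other lists, 2 of 16 listed nuclear hormone receptors were hosts (12.5%, against 2.21% of all genes), nhr-31 (119.9) and nhr-46 (104.8), both in first introns. The median intron content of that list was 3318.5 bp, against 717 bp over all genes. The receptors nhr-19 (270.1, 81.6 and 68.3) and nhr-34 (66.4), outside that list, were hosts too. GATA factors had 1 of 8 (12.5%), egl-27, in a list with a median intron content of 2668 bp. RNA binding had 1 of 35 (2.86%, near the share of all genes), larp-1 (85.0 and a shoulder of 6.95). The list of ribosomal proteins and translation genes had 1 of 80 (1.25%), rpl-31 (83.2). Its median intron content was only 192.5 bp, and this 1 site made 51.1 per megabase, against 18.0 over all genes. All 17 lists hold a part of their families, so a count describes the listed genes only. They are also small, so a change of 1 gene moves most of the shares by several percent.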

How the data were processed

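The data are ChIP-seq peak lists on ce11 that the authors deposited for 2 biological replicates and for both together, all of 1 group. Which aligner and caller made them is not given in the sources used here. The signal is the value deposited by the authors for each site. The score deposited by the authors is a whole number of at most 1000 that rises as the IDR falls, with a lowest value of 830 in the list used. The −log10 values deposited by the authors in the ranked list gave the IDR of each site, and those of the q-value were not used. Replicate signals come from the strongest overlapping peak in each replicate's own ranked list.

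Summits were compared with Ensembl release 115 and windows with the RefSeq WBcel235 genome. Background positions were taken every 25 bp in autosomal introns under the same rule, and every 100 bp for words. Other copies were found with BLASTN. Named sites were the 20 strongest, those of the longest and shortest introns, those with the core, the hosts with 4 or more sites (up to 10) and listed genes (up to 6 sites a list). Others (internal starts, small RNA genes, copies) were chosen after their values were seen. The members, words and lists were chosen with earlier results of these data known. Alternatives were another list, each replicate alone, a stricter IDR, other windows, distances, introns and words. Assignment of introns, starts and words was tested on simulated data with planted positions. Software was BLAST+ 2.17.0, matplotlib 3.10.9, scipy 1.17.1, pandas 2.3.3, numpy 2.4.6 and Python 3.11.15.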

Additional observations from a re-analysis of the deposited data

How the results depend on the processing

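Under most alternatives the shares and medians moved by less than their error and the counts by less than 1.5 times. The exceptions follow, and where no value shows the cause it was not tested. At an IDR of at most 0.001 there were 218 sites in 175 hosts, with a median signal of 144.8 and 74.3% in both replicates' lists, since that threshold keeps the stronger sites. In the second thresholded list of both replicates (624 sites, of which 456 were the same and 157 overlapped none of the 517) the median signal was 93.99 and 26.6% were in both lists. With 1 replicate alone there were 245 to 292 sites in 202 to 222 hosts, with a median signal of 65.13 to 72.01, on the scale of that replicate's list. The median intron length was 1764 bp when an intron ended at any exon of a protein-coding gene, with no value over positions under that definition. The share in a first intron was 50.8% when it had to be first in at least 1 transcript. The share at an internal start was 16.5% (5.95% of positions) for a window from 500 bp upstream to 100 bp downstream, 37.8% (16.3% of positions) for 2000 bp upstream to 200 bp downstream, and 52.2% (29.6% of positions) when starts of every gene counted. TGATAAG was in 19.1% of windows with 100 bp to each side, and the 6 letters TGATAA were in 17.6% of the standard windows. A longer window or a shorter word is met more often in any sequence. Neither share has one of intron windows beside it, so neither can be read as an excess. Alternatives chosen after seeing the data, 1 site per separate region and only the 451 sites with no other copy in the genome, moved none of the 6 shares and medians by more than its error and neither count by over 1.5 times. No paired analysis was possible because there was 1 group and no test. The peak lists hold no read counts, so what depth limits cannot be computed from them.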
